A study of Homo sapiens with 4 samples.

Results

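miR-124 is a microRNA (miRNA), a small noncoding RNA of neurons, and 2 mature products of it, hsa-miR-124-3p and hsa-miR-124-5p (miR-124-3p and miR-124-5p), were followed here among the 2656 human mature miRNAs counted in hESC-derived cortical interneurons. Both were chosen by name, as the rows of the count table that carry these names, and both passed the filter on low counts. Earlier results of these data were known when they were chosen. The cells were H1 human embryonic stem cells, a single cell line, that had been differentiated into cortical interneurons, which are inhibitory nerve cells, and cultured in neuronal maturation medium. The ethanol-exposed group held 2 cultures kept for 7 days with ethanol at around 50 to 100 mM, followed by a further day without ethanol, and the unexposed group held 2 cultures kept for 7 days without ethanol. All cultures came from the same line and the same differentiation procedure, and small RNA was sequenced from each as 1 library. Nothing in the labels says that cultures of a group were started separately, so P values measure the spread between these cultures only.

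miRNAs are cut as a pair of arms from the 2 sides of a hairpin precursor, and one arm, the guide, usually enters the silencing complex while the other, the passenger, is mostly degraded. The guide pairs with messenger RNAs through its seed, bases 2 to 8 from the 5' end, and lowers the output of those messages. miR-124-3p is the guide of its precursor and a classical marker of neuronal identity: its genes are silenced by the repressor REST in non-neuronal cells and are switched on as neurons differentiate. It lowers many messages of non-neuronal cells, among them that of the splicing regulator PTBP1, and together with both arms of miR-9 it can push fibroblasts towards a neuronal fate. miR-124-5p is the passenger arm.

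For comparison, 13 other miRNAs known to be enriched in neurons or brain were read beside miR-124. Seeds were compared for 21 of the 23 miRNAs that are members, belong to this list or had the most similar profiles. The miR-124 arms were the 2 left out. The mature sequences of the 21 were taken from RefSeq (GRCh38.p14). Those below are the partners of miR-124 in neuronal conversion (both arms of miR-9), the second most abundant miRNA of these cells (miR-7-5p), and miR-132-3p and miR-212-3p, which are induced by neuronal activity and were the only ones of the 21 to share a seed. Capitals mark the seed.
miR-9-5p: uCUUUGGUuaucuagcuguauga
miR-9-3p: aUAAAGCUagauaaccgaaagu
miR-7-5p: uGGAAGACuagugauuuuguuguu
miR-132-3p: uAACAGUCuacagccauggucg
miR-212-3p: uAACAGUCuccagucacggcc

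Mature miR-124 comes from 3 genes, and a read of a mature arm does not tell which gene it came from. In the GENCODE 29 annotation of GRCh38, MIR124-1 lies on chromosome 8 from 9903388 to 9903472 on the minus strand, within an exon of the long noncoding RNA gene LINC00599. MIR124-2 lies on chromosome 8 from 64379149 to 64379257 on the plus strand, in an intron of its host gene MIR124-2HG. MIR124-3 lies on chromosome 20 from 63178500 to 63178586 on the plus strand, opposite to a long noncoding RNA gene (AL096828.1) and within one of its introns. The deposited counts carry no coordinates, and these positions were matched by gene name.

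The libraries held between 12100425 and 24858230 counts, and each exposed library was deeper than each unexposed library, so that depth and exposure cannot be told apart. Levels are given as CPM (counts per 1000000 counts of the library) after TMM scaling, a correction that brings the bulk of the miRNAs to one level in all libraries. A read covers a whole mature miRNA, so counts need no correction for length, although adapters join some miRNA ends better than others. The neuronal label was checked against marker miRNAs. All 13 neuron-enriched miRNAs were detected in every library and summed to between 305823 and 487732 CPM. miR-9-5p and miR-7-5p were the most abundant miRNAs of all. The rarest were miR-137-3p, miR-138-5p, miR-488-3p, miR-153-3p and miR-212-3p, with means of 75.5, 55.4, 38.6, 24.5 and 13.1 CPM. These were below the means of some markers of other cells, such as miR-219a-2-3p (87.6 CPM) and miR-204-5p (896 CPM). Of 7 miRNAs of pluripotent stem cells, miR-367-3p and miR-373-3p had 0 counts in all libraries, and the list summed to between 2.42 and 3.89 CPM. The 3 oligodendrocyte miRNAs summed to between 75.7 and 116 CPM, nearly all of it miR-219a-2-3p. The 4 miRNAs of choroid plexus summed to between 798 and 988 CPM, nearly all of it miR-204-5p, and miR-449b-5p had 0 counts. Of 10 miRNAs of muscle, liver, blood, endothelium and mesenchyme, miR-223-3p and miR-142-3p of leukocytes had 0 counts. The list summed to between 1105 and 1341 CPM. Most of it was miR-126-3p of endothelium, at a mean of 905 CPM, and miR-1-3p of muscle, at 270 CPM. Of the 12 miRNAs of these 4 lists that could be tested, 0 had an unadjusted P under 0.05 between exposed and unexposed cells, by the quasi-likelihood test of edgeR, where 4.52% of all miRNAs tested were called. The groups did not overlap for 3 of the 12, where this held for 33.4% of all miRNAs tested, with exposed above unexposed cells for miR-338-3p of oligodendrocytes and miR-126-3p of endothelium, and below for miR-302b-3p of stem cells. The part of these markers in the miR-124 values was not tested.

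miR-124-3p was an abundant miRNA of these interneurons and was higher in the ethanol-exposed cells at an unadjusted P under 0.05, but not after adjustment over all miRNAs. It had 136324 counts in exposed replicate 1 and 81832 in exposed replicate 2, against 34768 and 28176 counts in the unexposed libraries. Scaled by TMM, its level was 5406 CPM and 3362 CPM in the exposed cultures. In the unexposed cultures it was 2948 CPM and 2190 CPM. Both exposed cultures lay above both unexposed cultures, and exposed replicate 1 stood far above the other 3. miR-124-3p averaged 4384 CPM with ethanol (SD 1445, n = 2) and 2569 CPM without ethanol (SD 536, n = 2), and the log2 fold change was 0.77 (standard error, SE, 0.30, 95% interval 0.088 to 1.45), or 1.71-fold.

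miR-124-3p had an unadjusted P of 0.0316 in the quasi-likelihood test of edgeR, and the adjusted p over all 863 miRNAs tested was 0.922. An unadjusted P under 0.05 was reached by 39 of the 863, or 4.52%, of which 22 (2.55%) were higher and 17 (1.97%) lower in exposed cells. Scaled by library size alone these were 30 and 7, and with upper quartile scaling 15 and 28. miR-124-3p was 1 of the 22, and it was 25th by P and 35th by log2 fold change. None passed an adjusted p of 0.05 (0 of 863 in edgeR, limma-voom and DESeq2). A two-sided exact permutation test of the 4 cultures gave 0.333, the smallest p that 2 against 2 allows. Groups that do not overlap were found for 33.4% of all miRNAs tested, and of all tested 18.8% had both exposed cultures above and 14.6% had both below.

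The size of the difference rested on single cultures. Without exposed replicate 1, the log2 fold change of miR-124-3p was 0.39 and the unadjusted P in edgeR 0.374. Without unexposed replicate 2 it was 0.53, with a P of 0.0663. Without exposed replicate 2 and without unexposed replicate 1 it rose to 1.08 and 1.00, with P values of 0.0135 and 0.00026. These fits leave a single culture in a group, which is then assumed to vary like the other group.

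miR-124-5p, the passenger arm, was much rarer and did not pass the test. With ethanol it had 5638 and 4452 counts, and without ethanol it had 2216 and 1585. After TMM scaling these were 224 CPM and 183 CPM in the exposed cultures. In the unexposed cultures they were 188 CPM and 123 CPM. The groups overlapped, since unexposed replicate 1 was above exposed replicate 2. miR-124-5p averaged 203 CPM with ethanol (SD 28.8, n = 2) and 156 CPM without ethanol (SD 45.7, n = 2), so that its log2 fold change was 0.39 (SE 0.27). By the quasi-likelihood test of edgeR its unadjusted P was 0.192 and its adjusted p 0.922, with a 95% interval of the log2 fold change from -0.24 to 1.01, and the exact permutation p was 0.667. Leaving out unexposed replicate 1 raised the log2 fold change to 0.72, with a P of 0.0130, and leaving out unexposed replicate 2 lowered it to 0.075, with a P of 0.794.

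**Figure D1:**
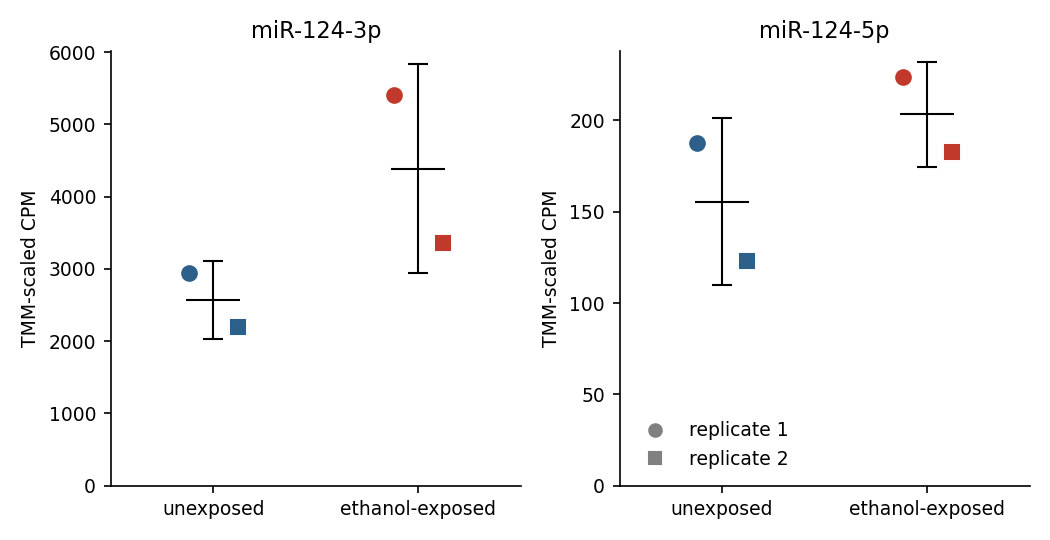
Level of each miR-124 arm in every library, in TMM-scaled CPM on axes that start at 0. Points are cultures, with circles for replicate 1 and squares for replicate 2, and the black bars give the mean ± SD of 2 cultures. For miR-124-3p both exposed cultures (5406 and 3362 CPM) lie above both unexposed cultures, while for miR-124-5p the groups overlap.

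The depth of the libraries fixed the share of miR-124-3p closely. In exposed replicate 1 it took 0.613% of all counts, with a 95% Wilson interval from 0.610 to 0.617%. For exposed replicate 2 the share was 0.329% (0.327 to 0.331%). Without ethanol its share was 0.249% (0.247 to 0.252%) and 0.233% (0.230 to 0.236%). No interval overlaps another, so the cultures lay further apart than counting error. Without molecular identifiers on the reads, these intervals describe counting error and nothing else. The shares above are unscaled, while the differences between replicates that follow are after TMM scaling. The TMM factors were 1.13 and 0.979 for exposed replicates 1 and 2, and 0.846 and 1.06 for unexposed replicates 1 and 2. Scaling thus brought the exposed cultures closer in miR-124-3p and moved the unexposed cultures apart. After it, the exposed cultures differed by 1.61-fold in miR-124-3p, a log2 difference of 0.69. The median was 0.19 over the 163 tested miRNAs with a mean of at least 100 CPM. Of these 163, 7 differed more between the exposed cultures. Between the unexposed cultures the log2 difference was 0.43, against a median of 0.34, and 63 of the 163 differed more. For miR-124-5p the order was turned, with 0.29 for the exposed pair and 0.61 for the unexposed pair.

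The order of miRNAs by level placed miR-124-3p 27th in exposed replicate 1 and 35th in exposed replicate 2 by count, and 39th and 44th in the unexposed libraries. By mean level it was 34th, at 3476 CPM. The miRNAs next to it in this order were miR-148b-3p, at 3616 CPM, and let-7b-5p, at 3393 CPM, both of which lay within the range of miR-124-3p over the 4 libraries. The log2 fold changes of these neighbours were -0.077 for miR-148b-3p and -0.0080 for let-7b-5p. miR-124-5p was 143rd, at 179 CPM, between miR-219a-1-3p and miR-1269b, at 187 and 177 CPM. The levels of these neighbours also overlapped with that of miR-124-5p.

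The balance of the arms, the passenger set against the guide, needs no scaling between libraries because both arms come from the same library. Of the counts of both arms, miR-124-5p made up 3.97% in exposed replicate 1, with a 95% Wilson interval from 3.87 to 4.07%. For exposed replicate 2 its share was 5.16% (5.01 to 5.31%). In the unexposed libraries its share was 5.99% (5.75 to 6.24%) and 5.33% (5.08 to 5.59%). There were thus 24.2 and 18.4 reads of the guide for each read of the passenger with ethanol, against 15.7 and 17.8 without it. Both exposed cultures lay below both unexposed cultures, but the intervals of exposed replicate 2 and unexposed replicate 2 overlapped.

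On the log2 scale the ratio of 5p to 3p was -4.40 ± 0.28 (SD, n = 2) in exposed and -4.06 ± 0.13 (SD, n = 2) in unexposed cells, a difference of -0.34. A two-sided exact permutation test gave 0.333, the smallest possible p. Without exposed replicate 1 the difference was -0.14, and without exposed replicate 2 it was -0.53. Without unexposed replicate 2 it was -0.43 and without unexposed replicate 1 it was -0.25. Among the 195 precursors with both arms tested, the arm balance of exposed and unexposed cells did not overlap in 58, or 29.7%, and 68 had a larger absolute difference than miR-124. A minor arm of 5.11% on average, as for miR-124, was also common, since 79 of the 195 had a smaller one.

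**Figure D2:**
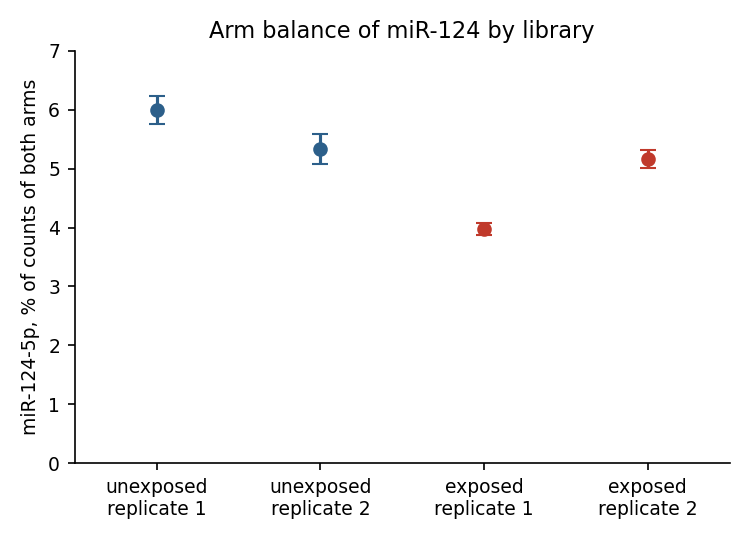
Share of miR-124-5p in the counts of both miR-124 arms, in percent, for each library, with 95% Wilson intervals that cover counting error only. The share is lowest in exposed replicate 1, at 3.97%, and highest in unexposed replicate 1, at 5.99%.

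The other neuron-enriched miRNAs lay on both sides of no change. By the quasi-likelihood test of edgeR 0 of 13 reached an unadjusted P under 0.05 (the lowest was 0.107), and limma-voom and DESeq2 also gave 0, where 4.52% of all miRNAs tested were called in edgeR. The log2 fold change was above 0 for 7 and below 0 for 6, where 48.8% of all miRNAs tested were above 0, and it ranged from -0.64 to 0.31, below the values of both miR-124 arms. The median was 0.086, against -0.010 for all miRNAs tested. Under upper quartile scaling these medians were -0.021 and -0.12. The groups did not overlap for 4 of the 13, with exposed above unexposed for miR-9-3p and miR-132-3p and below for miR-7-5p and miR-153-3p, against 33.4% of all miRNAs tested. Whether miR-124-3p differed from any of them in its response was not tested.

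The partners of miR-124 in neuronal conversion, the arms of miR-9, were more abundant than miR-124-3p. miR-9-5p, which promotes the exit of progenitors from division, was at 159473 and 192417 CPM in the exposed cultures. In the unexposed cultures it was at 254022 and 157352 CPM. The groups overlapped and the log2 fold change was -0.23 (SE 0.34). There were 29.5 and 57.2 reads of miR-9-5p for each read of miR-124-3p with ethanol, against 86.2 and 71.9 without it. This ratio was lower in both exposed cultures, but it uses the miR-124-3p counts given above. For the levels of single miRNAs, the groups did not overlap in either direction for 33.4% of all tested. The share for ratios of 2 miRNAs was not computed. miR-9-3p, the other arm, averaged 9936 CPM with ethanol (SD 39.2, n = 2) and 9360 CPM without ethanol (SD 551, n = 2), so that its log2 fold change was 0.086 (SE 0.23).

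miR-7-5p, which is known for lowering alpha-synuclein, had the lowest log2 fold change of the list, -0.64 (SE 0.35). It was at 79250 and 135236 CPM in the exposed cultures. In the unexposed cultures it was at 187070 and 146053 CPM. Both exposed cultures were below both unexposed cultures, and exposed replicate 1, where miR-124-3p was highest, was the lowest of the 4. Its unadjusted P in edgeR's quasi-likelihood test was 0.107, and it fell under 0.05 in the fit of every miRNA with at least 1 count and in that without unexposed replicate 2.

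miR-128-3p, a regulator of neuronal excitability, averaged 48439 CPM with ethanol (SD 420, n = 2) and 39081 CPM without ethanol (SD 13761, n = 2). miR-132-3p, which is induced by neuronal activity and shapes dendrites, averaged 1409 CPM with ethanol (SD 8.84, n = 2) and 1232 CPM without ethanol (SD 16.9, n = 2). Its cluster partner with the same seed, miR-212-3p, averaged 14.1 CPM with ethanol (SD 4.41, n = 2) and 12.1 CPM without ethanol (SD 0.284, n = 2). Their log2 fold changes were 0.31 for miR-128-3p, 0.19 for miR-132-3p and 0.22 for miR-212-3p. All 3 had unadjusted P values above 0.3 in edgeR's quasi-likelihood test, at 0.350, 0.367 and 0.493. Of the remaining 7, miR-138-5p and miR-137-3p, which act at synapses, had log2 fold changes of 0.26 and 0.17. The arms miR-129-5p and miR-129-2-3p were at -0.029 and 0.097, miR-488-3p at -0.037, miR-218-5p at -0.26 and miR-153-3p at -0.35.

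**Figure D3:**
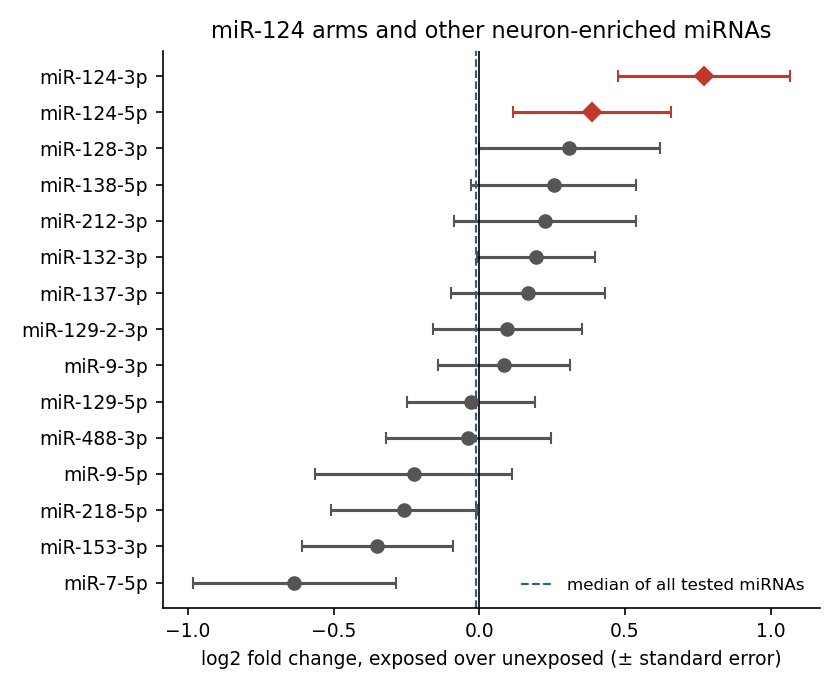
Log2 fold change of exposed over unexposed cells with its standard error from edgeR, for the miR-124 arms (red diamonds) and 13 other neuron-enriched miRNAs (grey circles). The miR-124 arms are at the top with 0.77 and 0.39, and the others lie on both sides of the median of all tested miRNAs (dashed line, -0.010).

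miR-506-3p, an X-linked miRNA that is known to share its seed with miR-124-3p, was far rarer and did not pass the test. With ethanol it had 463 and 576 counts, and without ethanol it had 244 and 520. Its level averaged 21.0 CPM with ethanol (SD 3.75, n = 2) and 30.6 CPM without ethanol (SD 14.0, n = 2). The groups overlapped, the log2 fold change was -0.54 (SE 0.36), and the unadjusted P in edgeR's quasi-likelihood test was 0.172.

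The miRNAs with the most similar profile were found by the root mean square difference in log2 CPM over the 4 libraries, with each profile centred on its own mean. This is a description over 4 libraries, and because it uses the exposure contrast itself, the fold changes of the miRNAs it finds add no support. For miR-124-3p the nearest of 375 miRNAs with a mean of at least 10 CPM was miR-181c-3p, at a difference of 0.14. It was followed by miR-490-5p, miR-1249-3p, miR-339-3p and miR-378c, at 0.16 each. The median difference over all 375 was 0.50. For miR-124-5p the nearest was miR-331-3p, at 0.060, followed by miR-378c, miR-664a-3p, miR-873-5p and miR-339-3p, at between 0.072 and 0.081. In each of these 8 miRNAs exposed replicate 1 was the highest library and unexposed replicate 2 the lowest, as in both miR-124 arms. miR-378c and miR-339-3p were near both arms, and no seed was shared among the 8. The arms of miR-124 differed by 0.23 from each other, which made miR-124-5p the 15th nearest to miR-124-3p. In the other direction, miR-124-3p was only the 72nd nearest to miR-124-5p.

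The sequences of the nearest miRNA of each arm and of the 2 that were near both show the different seeds in capitals.
miR-181c-3p: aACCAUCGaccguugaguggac
miR-331-3p: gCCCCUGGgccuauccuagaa
miR-339-3p: uGAGCGCCucgacgacagagccg
miR-378c: aCUGGACUuggagucagaagagugg

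miR-181c-3p averaged 170 CPM with ethanol (SD 38.7, n = 2) and 117 CPM without ethanol (SD 34.9, n = 2), so that its log2 fold change was 0.53 (SE 0.29). miR-339-3p averaged 242 CPM with ethanol (SD 52.6, n = 2) and 170 CPM without ethanol (SD 53.0, n = 2), so that its log2 fold change was 0.51 (SE 0.29). Each of the 8 had a smaller log2 fold change than miR-124-3p, between 0.29 and 0.53, and an unadjusted P of at least 0.104 in edgeR's quasi-likelihood test.

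**Figure D4:**
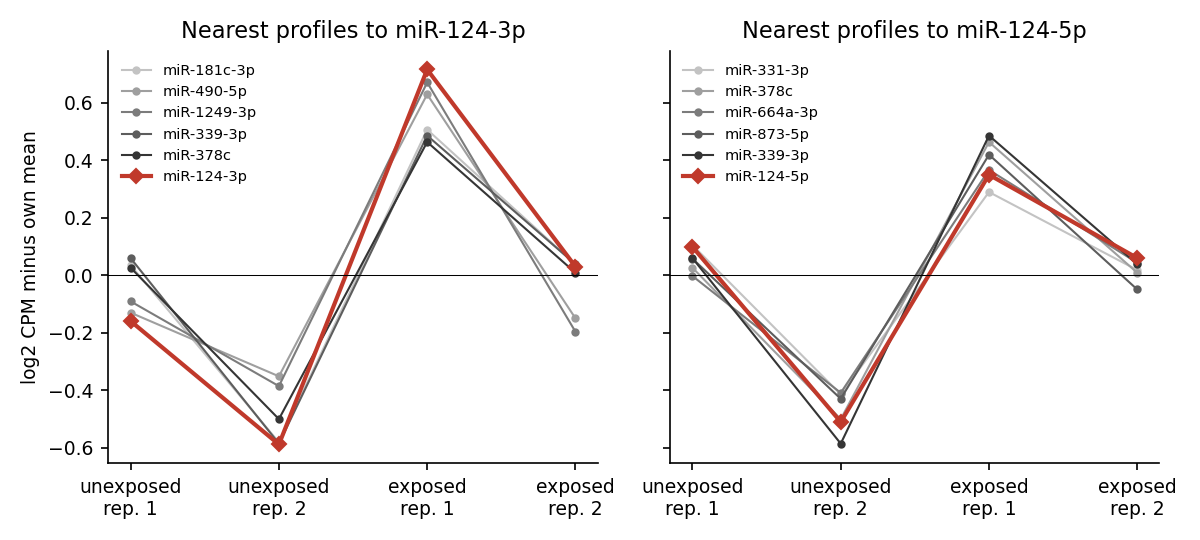
Log2 CPM of each miR-124 arm (red diamonds) and of the 5 miRNAs with the nearest profiles (grey circles) in the 4 libraries, each minus its own mean. All peak in exposed replicate 1 and are lowest in unexposed replicate 2, and miR-124-3p has the widest range.

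The log2 fold change of miR-124-3p was above 0 under each scaling of the libraries. It was 0.66 with upper quartile scaling, 0.73 with DESeq2's size factors, 0.83 with library size without the 3 most abundant miRNAs and 0.97 with library size only. These scalings moved the median of all miRNAs tested as well, to -0.12 with upper quartile scaling and 0.14 with library size only, against -0.010 with TMM. Relative to that median, miR-124-3p was higher by between 0.78 and 0.82 and miR-124-5p by between 0.39 and 0.43. The unadjusted P of miR-124-3p was between 0.0034 and 0.0476 over 10 other scalings, filters and tests of all 4 libraries. The lowest came from the edgeR fit of miRNAs with at least 1 count in any library. The adjusted p of miR-124-3p over these 10 fits was between 0.311 and 0.9998. For miR-124-5p the unadjusted P was between 0.0894 and 0.323. All 10 are refits of the same libraries and are not independent.

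**Figure D5:**
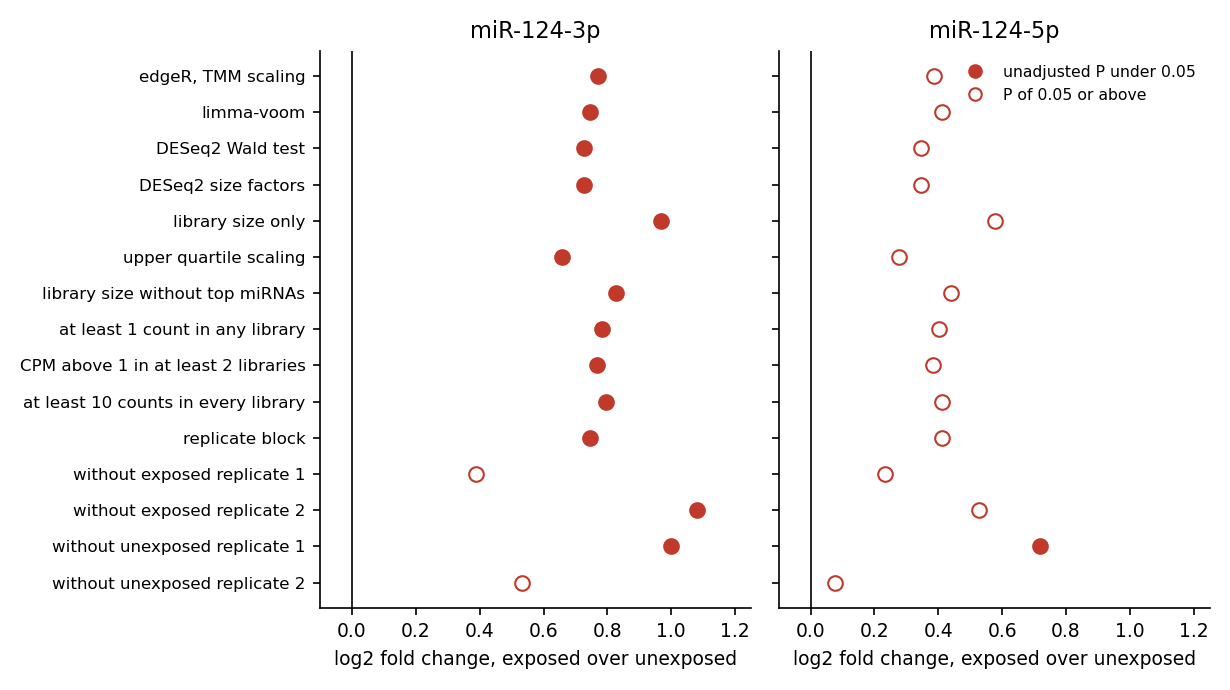
Log2 fold change of exposed over unexposed cells for both miR-124 arms under each scaling, filter and test and with each library left out. Filled circles have an unadjusted P under 0.05. All values are above 0, and miR-124-3p is lowest without exposed replicate 1, at 0.39.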

How the data were processed

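Small RNA libraries were made from total RNA with a NEBNext kit and the reads processed by the authors with CAP-miRseq, which trims, aligns and counts reads per mature miRNA. The version, the annotation release and the handling of reads that match several miRNAs are not given in the sources used here; the submitters' processing notes name the build hg19. The deposited values are raw counts, not normalized, with 1 column per library. From these, edgeR 4.0.16 in R 4.3.3 was run with filterByExpr (minimum count 10, minimum total 15), TMM factors (between 0.846 and 1.13), its quasi-likelihood test (2 exposed against 2 unexposed libraries, with no covariate), and Benjamini-Hochberg adjustment over all 863 miRNAs kept. The threshold was an unadjusted P of 0.05. Standard errors came from edgeR's F statistic. limma-voom (limma 3.58.1), DESeq2 1.42.0, other scalings and filters, fits with each library left out and with a replicate block were the alternatives. A pseudocount of 0.5 was used on log scales. Fits were tested on counts simulated with the spread that edgeR itself estimated, so this test does not cover a single deviating culture. Members and lists were chosen with earlier results of these data known. The miRNAs named were the miR-124 arms, miR-506-3p for its seed, the neuronal and marker lists, the 5 nearest profiles of each arm and the neighbours in the order of levels. The limit that a count of 0 allows (3 counts) was between 0.121 and 0.248 CPM before TMM scaling.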

Additional observations from a re-analysis of the deposited data

How the results depend on the processing

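The log2 fold change of both miR-124 arms was above 0 under all 14 alternatives. That of miR-124-3p kept its side of the threshold in 12 and that of miR-124-5p in 13, and the exceptions were fits without 1 library: over the 4 such fits the values lay between 0.39 and 1.08 for miR-124-3p and between 0.075 and 0.72 for miR-124-5p. The adjusted p of miR-124-3p ranged from 0.0170 (without unexposed replicate 1) to 1.00. The difference in arm balance ranged from -0.53 to -0.14 without 1 library and did not change with pseudocounts of 0 or 5. The number of all miRNAs with an unadjusted P under 0.05 was 94 with at least 1 count in any library, where 1 of the 13 neuron-enriched miRNAs (miR-7-5p, lower) was called. Without 1 library it ranged from 12 (without exposed replicate 1) to 109 (without unexposed replicate 2), with 99 without unexposed replicate 1, and between 0 and 3 neuron-enriched miRNAs were called. An adjusted p under 0.05 in edgeR was reached by 6 miRNAs with at least 1 count in any library and by between 1 and 18 without 1 library. With the replicate block, in edgeR, 25 miRNAs were called, with 0 neuron-enriched miRNAs among them. The log2 fold changes were then 0.75 (unadjusted P of 0.0450) for miR-124-3p and 0.41 (P of 0.164) for miR-124-5p. The paired difference in arm balance was -0.62 for replicate 1 and -0.049 for replicate 2, with a mean of -0.34. The labels do not say that numbers mark shared cultures, and the differences of replicate 1 from replicate 2 in exposed and in unexposed cells had a correlation of -0.186 across 863 miRNAs; with the crossed replicate block, added after the data were seen, 59 miRNAs were called. The causes of these changes were not tested. With 2 cultures a group, exact tests cannot go under 0.333.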
